A study of Macaca mulatta with 28 samples.

Results

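Calcium-activated potassium channels of the BK and SK families were followed in tissue of the ventral tegmental area (VTA), where the dopamine neurons that project to the nucleus accumbens have their cell bodies. The 7 genes were taken as a named list: the BK pore gene KCNMA1, the BK auxiliary subunits KCNMB2 and KCNMB4, the small-conductance (SK) genes KCNN1, KCNN2 and KCNN3, and the intermediate-conductance gene KCNN4. All 7 are among the 16885 transcripts with a gene symbol in the deposited table, and all 7 were among the 13769 that had at least 5 counts in at least 3 animals. Bulk RNA had been sequenced from 1 VTA punch in each of 28 wild-type male rhesus macaques aged 7 to 8.3 years. The 17 drinkers had self-administered ethanol with open access for 22 h per day, first for 12 months and then in a pair of reintroduction periods of 3 months, each access period being followed by a month of abstinence, and tissue was taken about 30 days into the last. The 11 controls were calorically yoked or housing controls and went without ethanol. A caloric control drank a maltodextrin solution matched in calories to the ethanol of 1 drinker, which ties these animals in pairs, but which controls were yoked and to which drinkers is not given in the sources used here. The labels sort the drinkers into low (1 animal), binge (2 animals), heavy (5 animals) and very heavy (9 animals), and low and binge were tested as 1 group (n = 3). Cohort 1 held 8 controls and 8 drinkers (1 low, 4 heavy and 3 very heavy), and cohort 2 held 3 controls and 9 drinkers (2 binge, 1 heavy and 6 very heavy).

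BK channels open when the membrane is depolarised and calcium rises together. They speed the repolarisation of the action potential and shape the fast afterhyperpolarisation, and their beta subunits, KCNMB1 to KCNMB4, set calcium sensitivity, gating speed and toxin block. SK channels are insensitive to voltage and sense calcium through calmodulin bound to their intracellular tail. In midbrain dopamine neurons the SK afterhyperpolarisation follows each spike, keeps pacemaking regular and limits bursts, and SK3, the product of KCNN3, is the SK subunit best known in these cells. Ethanol is known to act on BK channels directly, and SK channels have been studied in drinking behaviour.

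The pore-forming members share a selectivity filter with a glycine, a tyrosine and a glycine, and the stretches of 42 coding bases around it are shown to compare the genes over the same functional site. They are RefSeq sequences on Mmul_10, given 5′ to 3′ on the coding strand, with the codons of the 3 residues in capitals.
KCNMA1 (chr9:60710766-60710807, plus strand): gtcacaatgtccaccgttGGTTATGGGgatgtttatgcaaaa
KCNN1 (chr19:17507491-17507532, plus strand): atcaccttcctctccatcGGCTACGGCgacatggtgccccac
KCNN2 (chr6:111968345-111968386, plus strand): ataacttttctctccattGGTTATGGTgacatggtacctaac
KCNN3 (chr1:96305883-96305924, plus strand): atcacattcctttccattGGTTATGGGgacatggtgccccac
KCNN4 (chr19:43841605-43841646, minus strand): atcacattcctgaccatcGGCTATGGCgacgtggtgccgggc
The SK genes differed from each other in this window: KCNN1 and KCNN3 had 36 of the 42 bases in common, KCNN2 and KCNN3 34, and KCNN2 and KCNN4 29, the fewest of the 6 SK pairs. Over the aligned protein translations, identity was 65.6% between KCNN1 and KCNN2, 64% between KCNN1 and KCNN3, 67.2% between KCNN2 and KCNN3, and 43.9% to 45.3% between KCNN4 and the other SK genes. The BK subunits KCNMB2 and KCNMB4 were 32.8% identical. At the nucleotide level, 3 stretches of 31 bases were shared between any members (KCNN1 and KCNN3), out of 3099 in KCNN1 and 8700 in KCNN3. Stretches found in other genes made up 1.02% of KCNN3, 0.542% of KCNMB4, 0.0838% of KCNMA1 and 0% of the other members.

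The gene of KCNMA1 lies at chr9:60112455-60947862 on the plus strand, KCNMB2 at chr2:83683069-83976964 (plus), KCNMB4 at chr11:69854829-69920017 (plus), KCNN1 at chr19:17473833-17522800 (plus), KCNN2 at chr6:111571596-111998840 (plus), KCNN3 at chr1:96167248-96336443 (plus) and KCNN4 at chr19:43835459-43853608 (minus). Each gene is represented in the table by 1 Ensembl transcript (ENSMMUT00000025844.4, ENSMMUT00000020242.3, ENSMMUT00000020847.4, ENSMMUT00000010346.4, ENSMMUT00000028853.4, ENSMMUT00000025006.4 and ENSMMUT00000061558.2 in the same order), so that its value leaves out reads given to its remaining transcripts. RefSeq lists 51 transcripts for KCNMA1, 9 for KCNN1, 4 for KCNN2, 3 each for KCNMB2 and KCNN3, 2 for KCNN4 and 1 for KCNMB4, and how many reads fell on unlisted transcripts was not measured. KCNMA1 overlaps 3 uncharacterised RefSeq genes on the opposite strand and KCNMB2 overlaps 1 on the same strand.

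Total counts per animal lay between 12303977 and 27338712. Levels are given as CPM, counts scaled to a common library size after TMM normalization, and animals are numbered within drinkers and within controls. The dopamine neuron genes TH (5.58 to 826 CPM) and SLC6A3 (6.35 to 833 CPM) were present in all 28 libraries but varied widely between them. A punch mixes neurons, glia and vessels, and fewer cells of a type and less RNA per cell cannot be told apart. Astrocytic SLC1A2 was at 0 in all 28 libraries and neuronal SYT1 in 24, although both genes are widely used in brain, and only 1 transcript of each is listed. A transcript passing the filter was at 0 in at least 1 animal in 39.5% of cases, and 4 of the 7 members were (KCNMA1, KCNMB2, KCNN2 and KCNN4).

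KCNMB4, the beta subunit known as the neuronal one, had the highest median level per kilobase of RefSeq transcript, 11.5 CPM, whichever transcript length was taken for the others. KCNN1 followed with a median of 3.54 to 4.90 CPM per kilobase (longest to shortest transcript) and KCNMA1 with 0.893 to 5.01, and these intervals overlap. KCNMB2 had 0.868 to 2.07 and KCNN3 0.936 to 1.03 CPM per kilobase, which also overlap with KCNMA1. KCNN2 had a median of 0.0838 to 0.151 CPM per kilobase and KCNN4 about 0.0440, the lowest of the 7. The spread between animals, as a coefficient of variation of CPM, was 21% for KCNMB4, 25.4% for KCNN1, 38.7% for KCNMA1, 41.7% for KCNN3, 49.7% for KCNMB2, 116% for KCNN4 and 142% for KCNN2. The plot of CPM by category shows each animal.

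**Figure D1:**
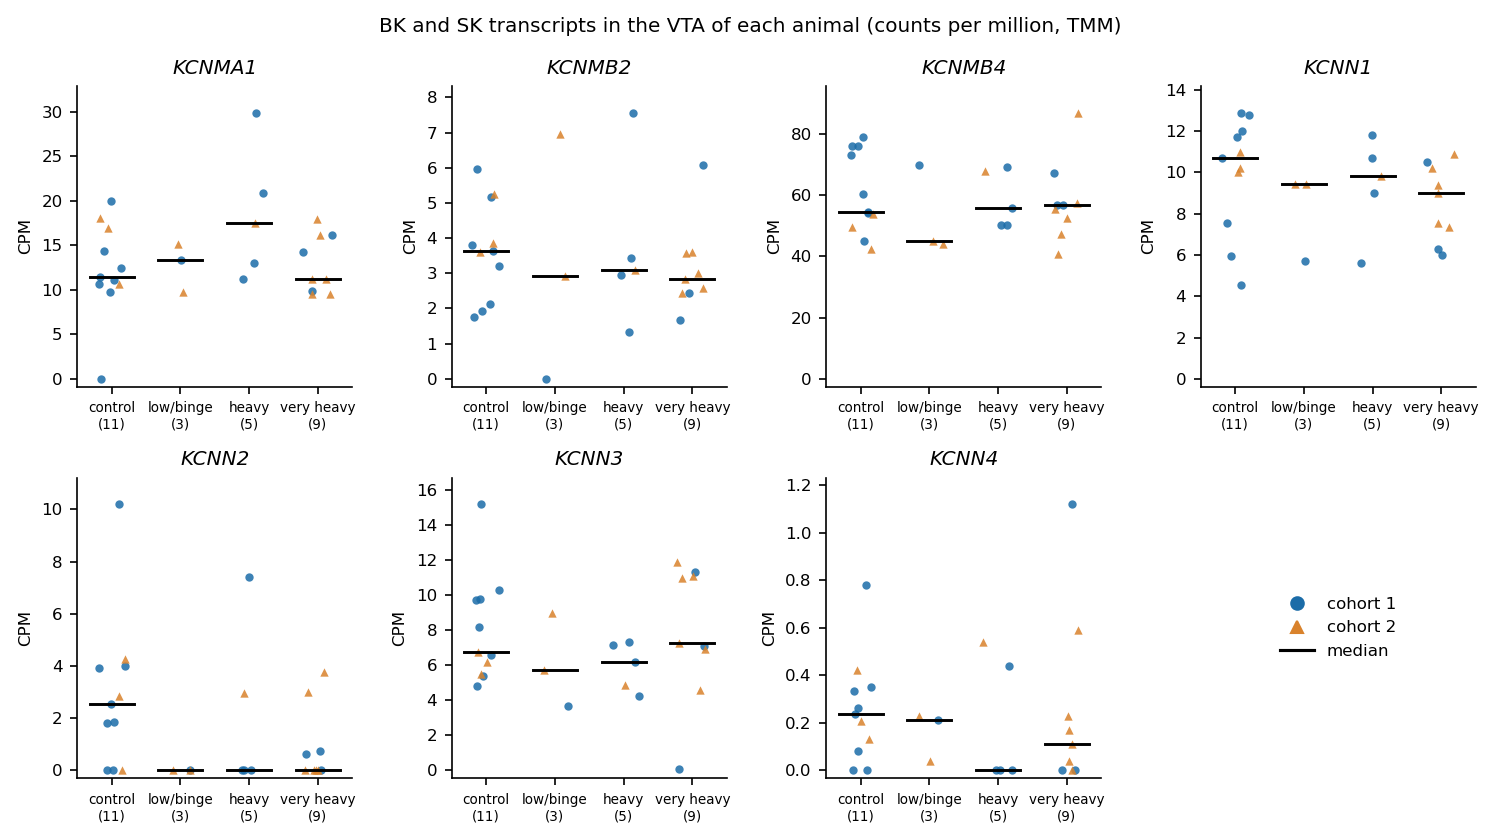
Level of each member in CPM (linear axis, separate scale per gene) for every animal, by drinking category with the number of animals in parentheses, circles for cohort 1 and triangles for cohort 2, and a black line at the median. KCNMB4 stays between 40.9 and 87.0 CPM in all groups, single animals stand near 0 for KCNMA1, KCNMB2 and KCNN3, and KCNN2 is at 0 in 14 of 28 animals.

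No member passed the test of drinkers against controls, the edgeR quasi-likelihood test with Benjamini-Hochberg adjustment over all transcripts (threshold 0.05), and the adjusted p was 1.00 for each. Of all 13769 transcripts 0% passed that threshold, 629 (4.57%) had an unadjusted p under 0.05, and DESeq2 called 11. Of the members, 0 had an unadjusted p under 0.05 and DESeq2 called 0. The median log2 fold change over the 7 members was -0.18, beside 0.00 over all transcripts. Over the 10 comparisons described here, which make 70 tests of members, 1 had an unadjusted p under 0.05 (KCNN2 in low or binge drinkers) and the lowest adjusted p was 0.563. A p that misses the threshold does not show equal levels, so intervals are given for each member.

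The BK pore gene KCNMA1 had 0 CPM in the lowest control, 11.4 in the median control and 20 in the highest, against 9.51, 13.4 and 29.9 CPM in drinkers. The groups overlap over most of their range, and the highest value belongs to a heavy drinker of cohort 1. The fitted log2 fold change was 0.24 ± 0.34 (SE), or 1.18-fold with a 95% interval from 0.723- to 1.92-fold, and limma-voom gave 0.89 with an adjusted p of 0.876. Control 8 of cohort 1 stood apart with 0 counts of KCNMA1, while the other 27 animals had 9.51 to 29.9 CPM, and without it the difference was 0.10 (1.07-fold, edgeR adjusted p = 1.00). Its library held 27338669 counts in all. At 3 counts, 0.142 CPM, the limit that a count of 0 allows, KCNMA1 was at least 91.7-fold lower than the median of the other animals. Of 5908 transcripts with a median of at least 10 CPM, 276 (4.67%) were at 3 counts or fewer in some animal, and control 8 had 38 of them at that level, where the animals ranged from 6 to 79 with a median of 21.5. Whether the other KCNMA1 transcripts carried the reads in that animal was not tested.

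Within cohort 1, KCNMA1 was at 0, 11.2 and 20 CPM in controls (lowest, median, highest) and 9.85, 13.8 and 29.9 CPM in drinkers, a log2 fold change of 0.52 ± 0.56, and 0.33 without control 8. Within cohort 2 the 3 controls had 10.7, 18.1 and 16.9 CPM and the 9 drinkers 9.51, 11.2 and 18 CPM (lowest, median, highest), a log2 fold change of -0.21 ± 0.25. The signs differ, but the drinking effect in cohort 2 minus that in cohort 1 was -0.74 ± 0.74 with adjusted p = 0.893. Within cohort 1, 5 transcripts (0.0363%) passed the adjusted threshold over the whole table and 1600 (11.6%) an unadjusted p under 0.05. Within cohort 2 these were 0% and 546 (3.97%), and for the difference between cohorts 2 (0.0145%) and 1325 (9.62%). Of the 7 members, 0 were among them under either threshold in any of the 3 fits.

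Among the drinking categories KCNMA1 was highest in heavy drinkers, whose 5 animals had 29.9, 20.9, 11.2, 13 and 17.5 CPM. The low drinker had 13.4 CPM, the binge drinkers 15.1 and 9.74 CPM, and the very heavy drinkers 9.51, 11.2 and 18 CPM (lowest, median, highest). Heavy drinkers exceeded controls by 0.59 ± 0.47 on the log2 scale (1.50-fold, interval 0.766 to 2.94, adjusted p = 0.964), and for very heavy against heavy drinkers the value was -0.52 ± 0.49 (adjusted p = 1.00). For heavy drinkers against controls, 10 alternative fits ran from 0.35 (without drinker 3, the animal at 29.9 CPM) to 0.72 (without drinker 5). Fits without control 8, the animal at 0, were added after the values were seen. Heavy drinkers against controls then gave 0.45 (edgeR adjusted p = 0.802, unadjusted 0.0498). Very heavy against heavy drinkers, with no control in either group, stayed at -0.52 (edgeR adjusted p = 0.692, unadjusted 0.0266, beside 0.299 with control 8). Only the error of that value changed, because the fit pools the spread over all animals. Over the whole table, 0% of transcripts passed the adjusted threshold for heavy drinkers against controls and for very heavy against heavy drinkers, and 932 (6.77%) and 897 (6.51%) had an unadjusted p under 0.05.

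KCNMB4 slows BK activation and makes the channel resistant to iberiotoxin. Controls had 42.3, 54.4 and 78.9 CPM (lowest, median, highest) and drinkers 40.9, 55.8 and 87.0 CPM. The ranges coincide almost completely, and the log2 fold change of -0.07 ± 0.11 (0.950-fold, interval 0.809 to 1.11) was the most precise of the members. It was -0.12 ± 0.12 within cohort 1 and 0.19 ± 0.20 within cohort 2, with a difference of 0.31 ± 0.23 (adjusted p = 0.785). Heavy drinkers had 50.4, 55.8, 50.4, 69.1 and 68.0 CPM and very heavy drinkers 40.9, 56.8 and 87.0 CPM (lowest, median, highest), with log2 fold changes against controls of -0.04 ± 0.16 and -0.06 ± 0.13.

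Across cohorts KCNMB4 came closest of the members to a difference. Cohort 1 had 45.1, 58.7 and 78.9 CPM and cohort 2 had 40.9, 51.1 and 87.0 CPM (lowest, median, highest), with overlapping ranges and a log2 fold change, cohort 2 against cohort 1 with drinking group as a covariate, of -0.21 ± 0.11 (0.865-fold, interval 0.737 to 1.01). The unadjusted p was 0.0721 and the adjusted p 0.563 with edgeR. In controls alone the 3 animals of cohort 2 had 53.8, 49.7 and 42.3 CPM against 45.1 to 78.9 CPM in the 8 of cohort 1, a log2 fold change of -0.42 (edgeR unadjusted p = 0.0337, adjusted p = 1.00), and in drinkers alone it was -0.11 (adjusted p = 0.839). Over all transcripts, 6 (0.0436%) passed the adjusted threshold between cohorts and 1350 (9.80%) an unadjusted p under 0.05, DESeq2 called 121 transcripts, and in controls alone edgeR had 0% and 567 (4.12%). Of the members, 0 passed any of these adjusted thresholds. The other 6 had log2 fold changes between cohorts from -0.14 (KCNN2) to 0.18 (KCNMB2), all smaller than their standard errors.

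KCNMB2, whose cytoplasmic end can plug the BK pore and inactivate it, was at 1.77, 3.64 and 5.98 CPM in controls (lowest, median, highest) and at 0, 2.95 and 7.57 CPM in drinkers. Drinker 8, the low drinker, was the 1 animal at 0, and the others had at least 1.34 CPM. With 3 counts as the limit, 0.160 CPM, its level was at least 20.1-fold below the median of the others. Its library had the most transcripts of a median of at least 10 CPM at 3 counts or fewer, 79 of 5908. KCNMB2, with a median of 3.15 CPM over all animals, is not in that set, and the share among less abundant transcripts was not measured. The log2 fold change of drinkers against controls was -0.14 ± 0.39 (0.907-fold, interval 0.523 to 1.57), and -0.05 without drinker 8. Over 36 alternative fits it ran from -0.43 (limma-voom) to -0.05. It was -0.11 ± 0.65 within cohort 1, where it turned to 0.08 without drinker 8, and -0.29 ± 0.32 within cohort 2. For low or binge drinkers against controls it was -0.15 ± 0.68, and 0.43 without drinker 8. The 2 binge drinkers differed from each other, with 2.93 and 6.96 CPM, and the heavy drinkers spread from 1.34 to 7.57 CPM. For the F test of the 3 drinking levels together, 0% of all transcripts passed the adjusted threshold and 781 (5.67%) an unadjusted p under 0.05, and the unadjusted p of the members ran from 0.0760 (KCNN2) to 0.967 (KCNN4).

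**Figure D2:**
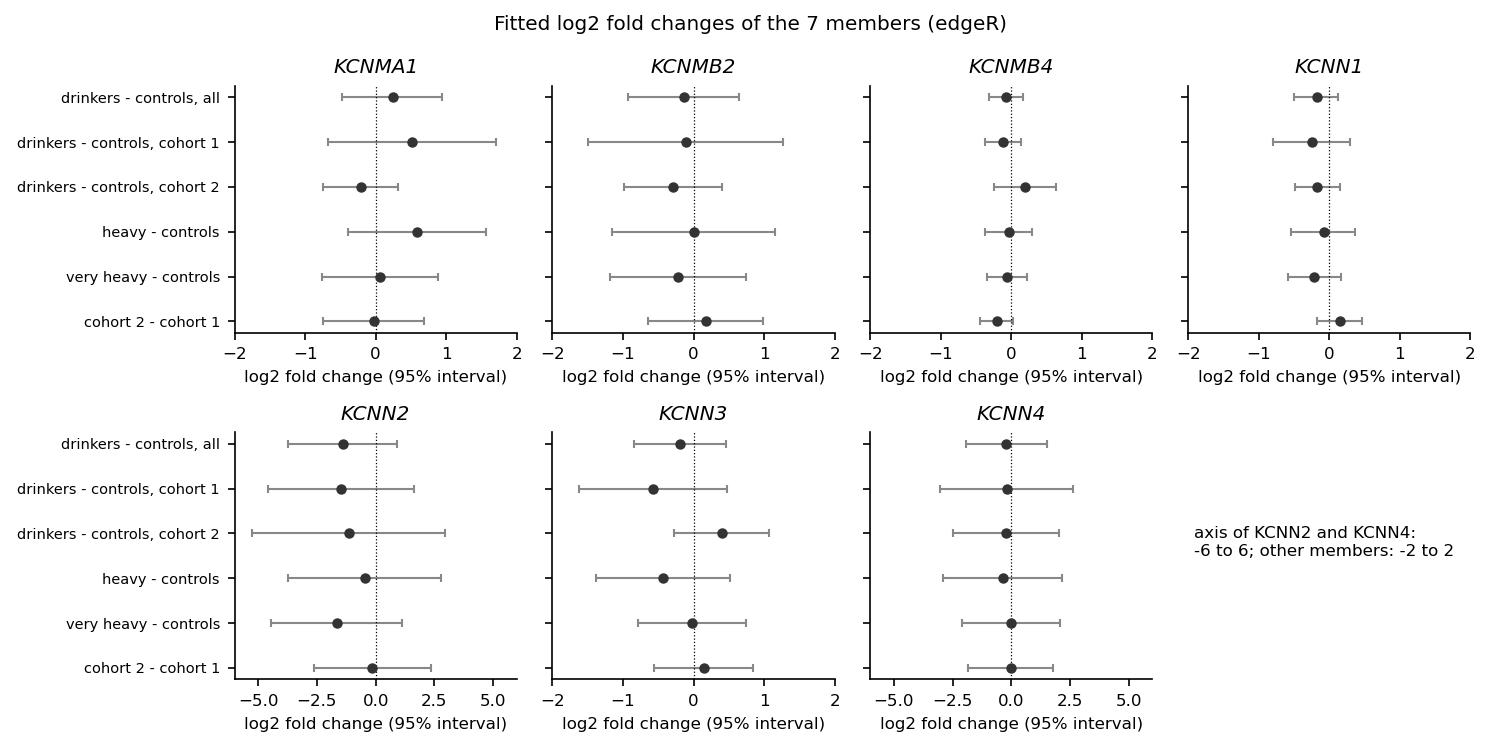
Fitted log2 fold change (point) and 95% interval (bar) of each member in 6 comparisons, from edgeR, with a dotted line at 0 and wider axes for KCNN2 and KCNN4. Each interval shown includes 0, and over all 28 animals KCNMB4 has the narrowest for drinkers against controls (-0.31 to 0.16) and KCNN2 the widest (-3.71 to 0.92). Low or binge drinkers against controls are not shown, and there the interval of KCNN2, at 0 in each of these drinkers, was -16.10 to -1.81.

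KCNN1, which encodes SK1, had 4.56, 10.7 and 12.9 CPM in controls (lowest, median, highest) and 5.61, 9.37 and 11.8 CPM in drinkers. Most drinkers lay within the control range and below its median. The log2 fold change was -0.18 ± 0.15 (0.880-fold, interval 0.708 to 1.09, edgeR unadjusted p = 0.240). The value was negative within cohort 1 (-0.25 ± 0.26) and cohort 2 (-0.17 ± 0.15), in heavy drinkers (-0.08 ± 0.22, and 0.06 without drinker 4), in very heavy drinkers (-0.21 ± 0.18) and in low or binge drinkers (-0.28 ± 0.27), comparisons that share control animals. Cohort 1 was the more variable, from 4.56 to 12.9 CPM with a coefficient of variation of 33%, while cohort 2 kept to 7.36 to 11.0 CPM with 11.9%. In cohort 1 controls 5 and 8 (4.56 and 5.94 CPM) and drinkers 4, 8, 9 and 11 (5.61, 5.69, 6.30 and 5.99 CPM) were lower than every animal of cohort 2.

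KCNN3, which encodes SK3, had 4.80, 6.76 and 15.2 CPM in controls (lowest, median, highest) and 0.104, 7.11 and 11.9 CPM in drinkers. Drinker 10, a very heavy drinker of cohort 1, had 2 counts (0.104 CPM), and every other animal had at least 3.67 CPM. The log2 fold change was -0.19 ± 0.32 (0.875-fold, interval 0.558 to 1.37), and -0.11 without drinker 10. Over 36 alternative fits it ran from -0.45 (limma-voom) to -0.06 (without control 3, the animal at 15.2 CPM). In cohort 1 it was -0.57 ± 0.50, and -0.38 without that animal, and in cohort 2 it was 0.40 ± 0.31. The difference between cohorts in the drinking effect, 0.96 ± 0.70, was the largest of the members relative to its error and did not pass (adjusted p = 0.768), nor did it without drinker 10 (0.77, adjusted p = 0.632). In cohort 2 the 3 controls had 5.48, 6.76 and 6.19 CPM, a narrow span inside the drinkers' 4.59, 7.29 and 11.9 CPM (lowest, median, highest). Heavy drinkers had 7.30, 6.21, 4.26, 7.18 and 4.89 CPM, all below the median of very heavy drinkers except 1, and very heavy drinkers had 0.104, 7.29 and 11.9 CPM (lowest, median, highest). The log2 fold change of very heavy against heavy drinkers was 0.41 ± 0.48, and 0.58 without drinker 10 (edgeR adjusted p = 0.665, unadjusted 0.0539). For very heavy drinkers against controls it was -0.02 ± 0.38, and 0.15 without drinker 10. Over all transcripts 0% passed the adjusted threshold for very heavy drinkers against controls, and 615 (4.47%) had an unadjusted p under 0.05.

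Drinker 10 also differed in another BK subunit that is not a member. KCNMB1, the smooth muscle beta subunit, had 263 counts (13.7 CPM) in this animal, while 23 of 28 animals were at 0 and the next highest had 33 counts. This library had 61 of the 5908 transcripts named above at 3 counts or fewer, a set that leaves out KCNN3 with its median of 7.03 CPM. KCNMB1 was singled out here after its values were seen.

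KCNN2, which encodes SK2, was listed at 0 in 14 of 28 animals and otherwise at 0.633 to 10.2 CPM, with no animal at 1 to 3 counts. Among controls it was at 0 in 3 of 11, with 1.82, 3.40 and 10.2 CPM in the 8 others (lowest, median, highest). Among drinkers it was at 0 in 11 of 17, with 0.633, 2.98 and 7.39 CPM in the 6 others. Fisher's exact test of the share of animals at 0, chosen after the values were seen, gave a two-sided p of 0.120, and 0.646% of all transcripts had an unadjusted p under 0.05 in the same test. Only the 39.5% of transcripts at 0 in at least 1 animal could reach such a p, so that share is a low reference for KCNN2. In cohort 1 it was at 0 in 2 of 8 controls and 5 of 8 drinkers (Fisher's exact test, two-sided p = 0.315), and in cohort 2 in 1 of 3 controls and 6 of 9 drinkers (p = 0.523 by the same exact test). Mean levels were 2.86 CPM in controls and 1.08 CPM in drinkers, and the log2 fold change was -1.39 ± 1.13 (0.381-fold, interval 0.0764 to 1.9, edgeR adjusted p = 1.00). The limma-voom fit gave -3.08 with an unadjusted p of 0.0166 and an adjusted p of 0.876, where 0% of all transcripts passed the adjusted threshold and 733 (5.32%) an unadjusted p under 0.05. Leaving out control 8, the animal with 10.2 CPM of KCNN2 and 0 counts of KCNMA1, gave -0.97, and leaving out drinker 3, with 7.39 CPM, gave -2.04.

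The 3 low or binge drinkers were all at 0 for KCNN2. The limit of 3 counts in each of these libraries is 0.119 to 0.160 CPM, so the level in each was at least 17.9-fold lower than the control mean of 2.86 CPM. This is the 1 test with an unadjusted p under 0.05 among the members (edgeR p = 0.0161, adjusted p = 0.930), and 667 transcripts (4.84%) had such a p in this comparison, with 0% past the adjusted threshold. The fitted log2 fold change was -8.95 ± 3.47 (interval -16.10 to -1.81), a size that the data cannot fix because the group had no counts. Heavy drinkers had 7.39, 0, 0, 0 and 2.96 CPM, and very heavy drinkers were at 0 in 5 of 9 with up to 3.75 CPM in the others. Zeros therefore occurred in every category and both cohorts. RefSeq lists 4 KCNN2 transcripts from 2091 to 3776 bases, and whether reads fell on another one where the listed transcript was at 0 was not tested.

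KCNN4, best known from blood cells and epithelia, was near the limit of detection. Controls had 0, 0.236 and 0.778 CPM (lowest, median, highest) and drinkers 0, 0.111 and 1.12 CPM, and 13 of 28 animals had 3 counts or fewer. Its highest value, 23 counts, was in a very heavy drinker of cohort 1. The log2 fold change of -0.22 ± 0.85 (interval 0.259- to 2.87-fold) includes changes in both directions, and it was 0.11 without control 4 and -0.63 without drinker 11, the highest animal of each group. It was at 0 in 7 of 16 animals of cohort 1 and 1 of 12 of cohort 2 (Fisher's exact test, two-sided p = 0.0882), and in 6 of 17 drinkers and 2 of 11 controls (p = 0.419 by the same exact test), tests chosen after the values were seen. Within cohorts 1 and 2 the exact test of drinkers against controls gave p = 0.315 and p = 1.00.

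The other genes of the pathway were taken from lists of BK subunits, related SLO channels, calmodulin with the SK partners, voltage-gated calcium channels and calcium release channels of the endoplasmic reticulum, 39 genes in all, of which 35 were tested. Of these, 0 passed the adjusted threshold for drinkers against controls, in either cohort, between cohorts or for heavy and very heavy drinkers, where edgeR called 0 to 6 transcripts of the whole table. Among the 15 voltage-gated calcium channel subunits tested, the calcium source that BK and SK channels sit beside, 0 had an unadjusted p under 0.05 for drinkers against controls, and the median log2 fold change was -0.05 (0.00 over all transcripts). CACNA1B, the N-type channel pore, had the lowest p with 18.1, 26.6 and 36.4 CPM in controls and 14.3, 24.2 and 35.1 CPM in drinkers (lowest, median, highest), a log2 fold change of -0.19 ± 0.13. CACNB2 came next at 0.84 ± 0.73.

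For the 6 calmodulin and SK partner genes tested the median was 0.02. CSNK2A1, a catalytic subunit of the casein kinase bound to SK channels, had 46.3, 56.1 and 63.6 CPM in controls and 49.2, 59.3 and 69.3 CPM in drinkers (0.09 ± 0.06), a narrow range in both groups. Its regulatory subunit CSNK2B had 0, 0.132 and 0.706 CPM in controls and 0, 0 and 3.57 CPM in drinkers, with 4 of 11 controls and 9 of 17 drinkers at 0, so that the fitted 1.60 ± 1.16 rests on a few high drinkers while the median was lower in drinkers. Of the 6 calcium release channels, ITPR2 alone had an unadjusted p under 0.05 (edgeR p = 0.00175, adjusted p = 0.518). It was at 0 in 8 of 11 controls and 16 of 17 drinkers and reached 34.9 CPM in a control, so its fitted -5.04 ± 1.46 rests on few animals, and ITPR3 had -0.62 ± 0.53. Of the 5 other BK subunits tested, LRRC55, a gamma subunit expressed in brain, was the 1 above 0 in all animals, with 2.94, 4.97 and 10.5 CPM in controls and 1.81, 5.36 and 8.13 CPM in drinkers (-0.24 ± 0.22), and LRRC52 was at 0 in 17 of 28. Among the 3 other SLO channels, the sodium-activated KCNT1 had medians of 18.2 and 18.4 CPM in controls and drinkers (-0.07 ± 0.17), and KCNU1, the sperm channel, was at 0 in 20 of 28.

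To relate the members to the cell content of each punch, their log2 CPM was correlated over the 28 animals with 7 marker scores, each the mean z-score of a cell type's markers. No score passed in drinkers against controls or between cohorts after adjustment over the 14 permutation tests (lowest adjusted p = 0.0911, astrocytes, a mean score 0.63 higher in cohort 2, unadjusted p = 0.00651). Of the 49 relations, 6 had an unadjusted permutation p under 0.05 by Pearson's r and 1 passed after adjustment over all transcripts. By Spearman's rho 10 had such a p and 0 passed (lowest adjusted p = 0.0781). How many of all transcripts had such an unadjusted p was not counted, so whether the members exceed that share is not known. Those past the unadjusted threshold by rho included KCNMA1 with oligodendrocytes (rho = -0.47, adjusted p = 0.264), KCNN1 with neurons (0.38, adjusted p = 0.342), and KCNMB2 with astrocytes (0.39, adjusted p = 0.379) and microglia (0.43, adjusted p = 0.607).

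KCNMA1 with the neuron score was that relation, with Pearson's r = 0.52 (permutation p = 0.00059, adjusted p = 0.0336) and Spearman's rho = 0.57 (permutation p = 0.00176, adjusted p = 0.0781). The neuron score had 288 transcripts (2.09%) past the adjusted threshold. Control 8, which lists KCNMA1 at 0, also had the lowest neuron score (-1.12), but r was 0.63 without it, 0.52 without the 2 animals farthest from the median score, 0.62 in cohort 1 and 0.52 in cohort 2. The summed level of the 6 neuron markers that passed the filter, of 7 listed, was 2451 to 9015 CPM in controls and 2691 to 17962 CPM in drinkers. The neurofilament genes NEFL and NEFM had the medians 1420 and 1874 CPM, and SYT1 and ELAVL4 were at 0 in 24 and 8 animals. Heavy drinkers, where KCNMA1 was highest, had the highest median neuron score (0.84, against -0.03 in controls and -0.23 in very heavy drinkers), and its part in the KCNMA1 values was not tested.

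KCNN1 had its strongest relation with the dopamine neuron score, and it was negative: r = -0.50 (permutation p = 0.00737, adjusted p = 0.380) and rho = -0.44 (permutation p = 0.0198, adjusted p = 0.549). In cohort 1 r was -0.70 and in cohort 2 it was 0.43, the opposite sign, and the difference between those coefficients was not tested. Without the 2 animals farthest from the median score r was -0.40. All 11 listed dopamine neuron markers passed the filter, with a summed level of 42.8 to 1944 CPM in controls and 43.1 to 1756 CPM in drinkers. TH, SLC6A3, SLC18A2, DDC, FOXA2 and RET were at 0 in 0 animals. ALDH1A1 was at 0 in 7 animals, NR4A2 in 6, DRD2 in 5, PITX3 in 2 and EN1 in 1, and each marker has the same weight in the score. KCNN1 correlated positively with the GABA neuron score (GAD1, GAD2 and SLC32A1), with r = 0.44 (permutation p = 0.0188, adjusted p = 0.790) and rho = 0.46 (permutation p = 0.0145, adjusted p = 0.787), again 0.62 in cohort 1 and -0.03 in cohort 2. The background shares for these scores were 0.400% and 0.0218% of transcripts.

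KCNN3 gave r = 0.25 with the dopamine neuron score over all 28 animals (permutation p = 0.212, adjusted p = 0.882), and rho = 0.51 (permutation p = 0.00574, adjusted p = 0.362). Without drinker 10, the animal at 2 counts, r was 0.57 (unadjusted permutation p = 0.00215, an analysis added after the values were seen), and it was 0.63 in cohort 2 alone. Without the 2 animals farthest from the median score r fell to 0.15. In cohort 1 with drinker 10 it was 0.20.

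KCNMB4 with the oligodendrocyte score gave r = 0.47 (permutation p = 0.0120, adjusted p = 0.241) and rho = 0.52 (permutation p = 0.00533, adjusted p = 0.192), where 0.247% of transcripts passed. It was 0.63 in cohort 1, 0.19 in cohort 2 and 0.38 without the 2 farthest animals. KCNMB4 with the astrocyte score gave r = -0.44 (permutation p = 0.0199, adjusted p = 0.290) and rho = -0.44 (permutation p = 0.0203, adjusted p = 0.291), with 0.21 in cohort 1 and -0.74 in cohort 2, and -0.26 without the 2 farthest animals, and 0.450% of transcripts passed. The astrocyte score held 4 of 6 listed markers. Of these, AQP4 was at 0 in 18 animals, and the medians of GFAP, SLC1A3 and GJA1 were 3.66, 51.3 and 643 CPM. The summed oligodendrocyte markers (7 of 8 listed) were 11731 to 21264 CPM in cohort 1 and 13351 to 19576 CPM in cohort 2. With the dopamine neuron and oligodendrocyte scores as covariates, the log2 fold change of KCNMB4 between cohorts was -0.17 (edgeR adjusted p = 0.567), beside -0.21 without them. The astrocyte score, whose mean was 0.63 higher in cohort 2, was not among these covariates. KCNMB2 had r = 0.43 with the endothelial score (permutation p = 0.0441, adjusted p = 0.435) and rho = 0.19 (permutation p = 0.337, adjusted p = 0.809). Without drinker 8 its r fell from 0.43 to 0.18. KCNN2 and KCNN4 had no score with an r outside -0.30 to 0.24, and the microglia and endothelial scores had 0.233% and 0.0727% of transcripts past the threshold.

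**Figure D3:**
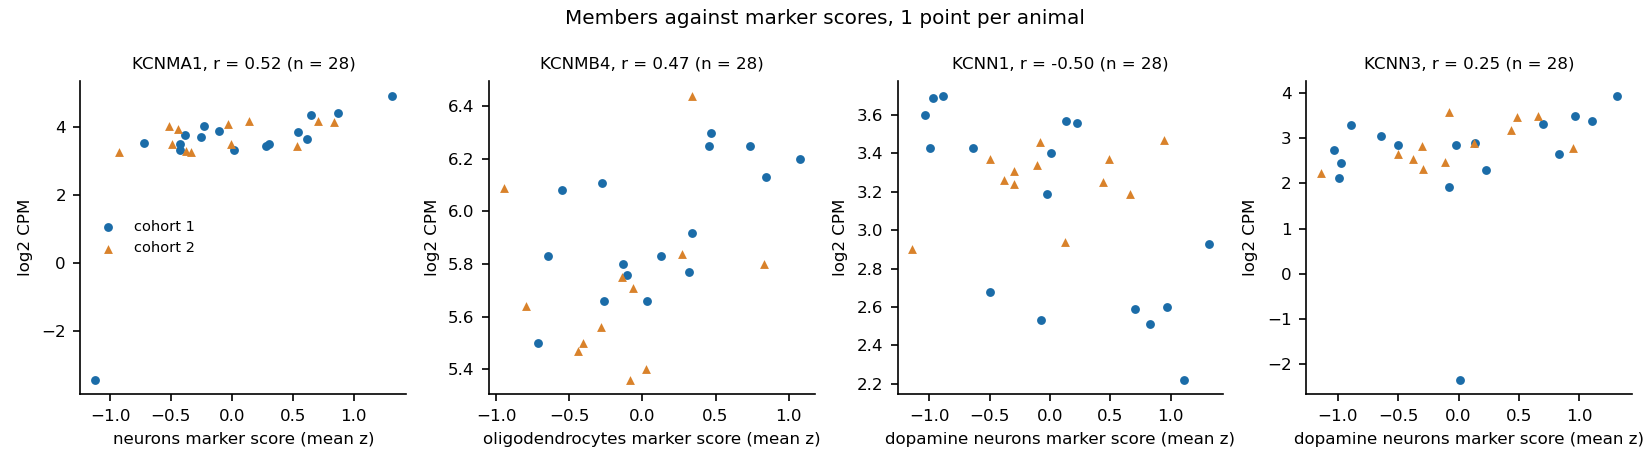
Log2 CPM of 4 members against a marker score (mean z of the cell type's markers), 1 point per animal, circles for cohort 1 and triangles for cohort 2. KCNMA1 against the neuron score (r = 0.52, control 8 at the bottom left) is the 1 relation that passed after adjustment, and the r of KCNMB4 (0.47), KCNN1 (-0.50) and KCNN3 (0.25, drinker 10 at the bottom) did not pass.

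Pairs of members showed no relation past an unadjusted threshold. Over the 21 pairs, r lay between -0.33 and 0.34 and rho between -0.34 and 0.36, and 0 pairs had an unadjusted permutation p under 0.05 (lowest 0.0756 for r and 0.0619 for rho). The transcripts most like each member were sought among the 8329 with a count above 0 in every animal, by Pearson's r of log2 CPM over 28 animals. As the highest of 8329 values they were chosen for their size, so these r, also within cohorts of the same animals, are a description with no test. For KCNMB4 they were RNF220 (r = 0.73), CRYAB (0.73), a small heat shock protein abundant in oligodendrocytes, and TLNRD1 (0.71), with rho from 0.72 to 0.75 and values of 0.59 to 0.79 within each cohort. For KCNN1 they were CHP1 (0.74), a calcineurin-like calcium-binding protein, ADARB1 (0.71), an RNA editing enzyme, and FAM184B (0.70), and within cohorts they ran from 0.43 to 0.82. For KCNN2 they were CORO1B (0.67), MRPL4 (0.65) and LMTK3 (0.62), and for KCNN4 MESD (0.66), ZFP82 (0.65) and SPATA5L1 (0.65). Within cohorts these ran from 0.45 (LMTK3, cohort 2) to 0.79 (LMTK3, cohort 1) for KCNN2 and from 0.28 (ZFP82, cohort 2) to 0.77 (ZFP82, cohort 1) for KCNN4.

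For the 3 members with a library near 0 the nearest transcripts depended on that library. KCNMA1 was nearest to CAMK1 (r = 0.80), GNPDA2 (0.80) and AARSD1 (0.77), which fell to 0.24, 0.39 and 0.43 without control 8. KCNMB2 was nearest to DUS1L (0.85), GTF2A1 (0.81) and CMTM3 (0.80), which fell to 0.35, 0.16 and 0.19 without drinker 8. KCNN3 was nearest to GABRG3 (0.83), a GABA-A receptor subunit, MMAB (0.83) and TMEM39B (0.82), which fell to 0.43, 0.42 and 0.19 without drinker 10.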

How the data were processed

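Libraries had been made with a Nugen Universal Plus mRNA kit and read as paired 150-base reads. The authors trimmed reads with Trim Galore 0.6.7, quantified them with Salmon 1.9.0 on Mmul_10 and deposited estimated counts, not normalized, for 1 transcript per gene symbol. Whether counting used strand is not given in the sources used here. Here counts were rounded to whole numbers, 1 entry without a symbol (1.16e-05% of counts) was left out, and transcripts reaching 5 counts in 3 or more animals were tested with edgeR 4.0.16 (TMM, quasi-likelihood), limma 3.58.1 and DESeq2 1.42.0 in R 4.3.3. SE is the log2 fold change over the square root of F. Groups come from the labels and cohorts from the study's source data; each library is 1 animal, and the most alike pair had 0.63% identical counts over 50. Correlations used log2 CPM (prior count 2) and 100000 two-sided permutations in Python 3.11.15 with numpy 2.4.6, scipy 1.17.1 and pandas 2.3.3. Genes named are all members, from each pathway list at most the 2 with the lowest p, and for each member the 3 other transcripts with the highest r among those above 0 in every animal. KCNMB1 was named outside this rule. Members, lists and tests were chosen with earlier results of these data known. Intervals and limits on a count of 0 cover counting and fitted error only. Fits were checked on simulated counts with planted changes: the median fold came back close to the planted one, a part of the changes was missed, more of them among the smaller changes, and over 28 animals unchanged transcripts made up a larger share of the calls than the threshold sets. RefSeq transcript lengths on Mmul_10 stand in for the Ensembl ones. Gene sequences came from RefSeq, and all 7 members matched by symbol. CALM2, PPP2CA and hemoglobin genes were not analysed here. Alternatives were other tests, size factors, filters, covariates and leaving out animals.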

Additional observations from a re-analysis of the deposited data

Results flagged for a closer look

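Of 35 checks of a member within a group of 5 to 9 animals, 5 held 1 animal far from the rest, measured by its gap to the nearest animal on the log2 CPM scale. The nominal rate of this rule is about 1 in 20, and its rate over all transcripts was not measured. Since 39.5% of transcripts were at 0 in at least 1 animal, the nominal rate is a poor reference for animals near 0. KCNMA1 was at 0 CPM in control 8, against 9.80 to 20 CPM in the other 7 controls of cohort 1. KCNMB2 was at 0 CPM in drinker 8, the low drinker, against 1.34 to 7.57 CPM in the other 7 drinkers of cohort 1. KCNN3 was at 0.104 CPM (2 counts) in drinker 10, which stood apart both among the 9 very heavy drinkers, whose others had 4.59 to 11.9 CPM, and among the 8 drinkers of cohort 1, whose others had 3.67 to 11.3 CPM. KCNMB2 was at 6.96 CPM (153 counts) in drinker 2, a binge drinker, against 2.43 to 3.62 CPM in the other 8 drinkers of cohort 2.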

How the results depend on the processing

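No member was called in any of 631 alternative fits of single members (KCNN2 in low or binge drinkers, all at 0, is not among them), in which 5 had an unadjusted p under 0.05, the lowest adjusted p was 0.400 and 24 had the other direction. Over all transcripts the counts of calls moved more. DESeq2 called 11 transcripts for drinkers against controls, 184 within cohort 1 and 121 between cohorts, where edgeR called 0, 5 and 6. Within cohort 1 the fit with the dopamine neuron score as a covariate called 2. Between cohorts, DESeq2 size factors gave 3, at least 10 counts in every animal 10, controls only 0, drinkers only 104 and both marker scores as covariates 19. Within cohort 1, where only control 8, drinker 8 and drinker 10 were left out in turn, the count was 1 (drinker 8) to 3 (drinker 10), with 2 without control 8. Within cohort 2, where only the 3 controls were left out in turn, it was 0 to 1 (control 11). For the difference between cohorts in the drinking effect, leaving out the same animals as in cohort 1 gave 0 (drinker 8) to 3 (drinker 10), with 1 without control 8. Without the 2 animals farthest from the median score, 2 of 49 correlations had an unadjusted p under 0.05, where 6 did before, and KCNN1 with the dopamine neuron score turned to 0.43 in cohort 2 alone. The cause was not tested. Leaving out control 8, drinker 8 or drinker 10 was added after seeing the data in every comparison but drinkers against controls. KCNN4 had 3 counts or fewer in 13 animals, where counting error is large, and KCNN2 was at 0 in 14. No paired analysis was possible because the labels give no replicate numbers shared between groups and the sources used here do not say which drinker a yoked control belongs to.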
